A study of Mus musculus with 18 samples.

Results

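The genes described here encode the smooth muscle and non-muscle forms of myosin II and the kinase that activates it: Myh11, Myh9, Myh10, Myl9, Myl12a, Myl12b, Myl6 and Mylk. These 8 genes were taken by symbol from the 35655 genes of the deposited count table, and all 8 were among the 10312 genes that passed the filter on low counts and were tested. Carotid tissue of male wild-type (WT) C57/BL6 mice on chow was dissected before wire injury (day 0, labelled pre-injury, 4 libraries) and on days 7 (4 libraries), 14 (3), 21 (4) and 28 (3) after it. In this model a wire strips and stretches the left carotid artery, and a neointima, a new layer of cells on the inside of the vessel wall, grows over the following weeks. Injured vessels with signs of thrombosis had been left out. Each library came from pooled sections cut by laser capture microdissection, and it was made by MACE, a method that sequences the 3′ ends of transcripts. The sections are described as holding the outer elastic lamina and the neointima. Since the neointima grows after injury, day 0 sections would not have held it. Comparisons with day 0 therefore also compare different tissue. The sources used here do not say whether the day 0 tissue came from mice without surgery or from the right carotid, which served as control. Neither do they say that each library came from its own animal, so p-values measure the spread between libraries. There are 3 label numbers that occur on both day 0 and day 21, and whether they name the same animals is not stated.

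Myosin II is a motor that pulls on actin filaments. It is built of a pair of heavy chains, each of which carries an essential and a regulatory light chain. Calcium signals activate myosin light chain kinase, the product of Mylk, which phosphorylates the regulatory light chain and so switches the motor on, and myosin phosphatase reverses this. In arterial smooth muscle Myh11 and Myl9 form the contractile motor that holds vessel tone, while the non-muscle heavy chains Myh9 and Myh10, together with Myl12a and Myl12b, serve the shape, migration and division of most cell types.

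The 18 libraries held between 440675 and 878310 counts. Tissue identity was checked with markers that contained no myosin gene. All 8 contractile smooth muscle markers (Acta2, Tagln, Cnn1, Lmod1, Des, Actg2, Synpo2 and Tpm2) had counts on every day. Their summed level was 34110 to 38685 CPM (counts scaled to a common total) per library on day 0, 1894 to 7727 on day 7, 8308 to 24831 on day 14, 9263 to 23113 on day 21 and 21925 to 29700 on day 28. The 16 macrophage markers summed to 151 to 624 CPM on day 0, with Itgam at 0 counts, and to 5495 to 7934 on day 7, 1440 to 3143 on day 14, 2229 to 3784 on day 21 and 1020 to 1336 on day 28. Among the day 14 libraries replicate 1 stood apart, with 24831 CPM of contractile markers against 8308 and 9132 in the other 2 libraries.

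In the mouse genome build GRCm39 with GENCODE vM39 annotation, Myh11 lies at chr16:14012399-14109236 on the minus strand and Mylk on the plus strand of the same chromosome at chr16:34565580-34822790. Myh9 lies at chr15:77644785-77726381 (minus), Myh10 at chr11:68582385-68707470 (plus), Myl9 at chr2:156617084-156623579 (plus) and Myl6 at chr10:128320267-128330014 (minus). Myl12a at chr17:71299231-71310871 and Myl12b at chr17:71280119-71297959 are neighbours on the minus strand. Of the distinct 75-base windows in the last 400 bases of the Myl12a transcripts, 45 of 1188 (3.79%) also occurred in Myl12b transcripts, so counts of these paralogues could be split differently by another counter. A readthrough gene that spans both, Gm49909, had 0 counts in every library. None of the windows was shared among the 3 heavy chains, or between Myl9, Myl6 or Mylk and the other light chain genes. At its 3′ end Myl6 overlaps Smarcc2 on the other strand, which had 8 to 62 counts per library.

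Serum response factor binds the CArG box, an element with a core of A and T bases between CC and GG, and drives many contractile genes. RefSeq promoter windows (250 bases before to 50 after a start, GRCm38.p6) were at hand for 7 of the 8 genes, 8 windows in all, and Myh11 had no entry. A CArG box stood in 535 of the 32851 windows of the whole table (1.63%) and in 2 of these 8 windows, 1 of Myl9 and 1 of Myl6. Both are shown because they belong to light chains whose levels changed together (below), with the box in capitals, 10 bases of flank on either side and the strand of the gene. The Myl9 stretch lies at chr2:156775293-156775322 on the plus strand, and the box within it began 161 bases before the start. The Myl6 stretch lies at chr10:128493040-128493069 on the minus strand, and its box began 50 bases before the downstream one of the 2 Myl6 starts.
Myl9: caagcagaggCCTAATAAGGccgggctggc
Myl6: gctcttacttCCTTATATGGgcaggaccta
A match of letters does not show that the factor bound there.

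Myh11, Myl9, Mylk and Myl6 were high before injury and lowest on day 7, and their day means were higher again from day 14 to day 28. Against day 7, Myl6 had no call on day 14, and the day 14 calls of Myh11, Myl9 and Mylk were lost without replicate 1 of that day (below). Myh9 was higher than on day 0 on days 7, 14 and 21, with no call between day 7 and day 14 or 21, and overlapped day 0 on day 28. Myh10 was called lower than on day 0 on day 7 alone, while its means were 73.5% and 77.7% of day 0 on days 14 and 21. Myl12a and Myl12b passed the test on no day. Together the 8 genes took 2.07% ± 0.07 (SD, n = 4) of the counts of all tested genes on day 0, 0.471% ± 0.093 (n = 4) on day 7, 0.914% ± 0.334 (n = 3) on day 14, 0.987% ± 0.168 (n = 4) on day 21 and 1.72% ± 0.107 (n = 3) on day 28. In tissue libraries of this kind fewer smooth muscle cells and less RNA per cell cannot be told apart.

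**Figure D1:**
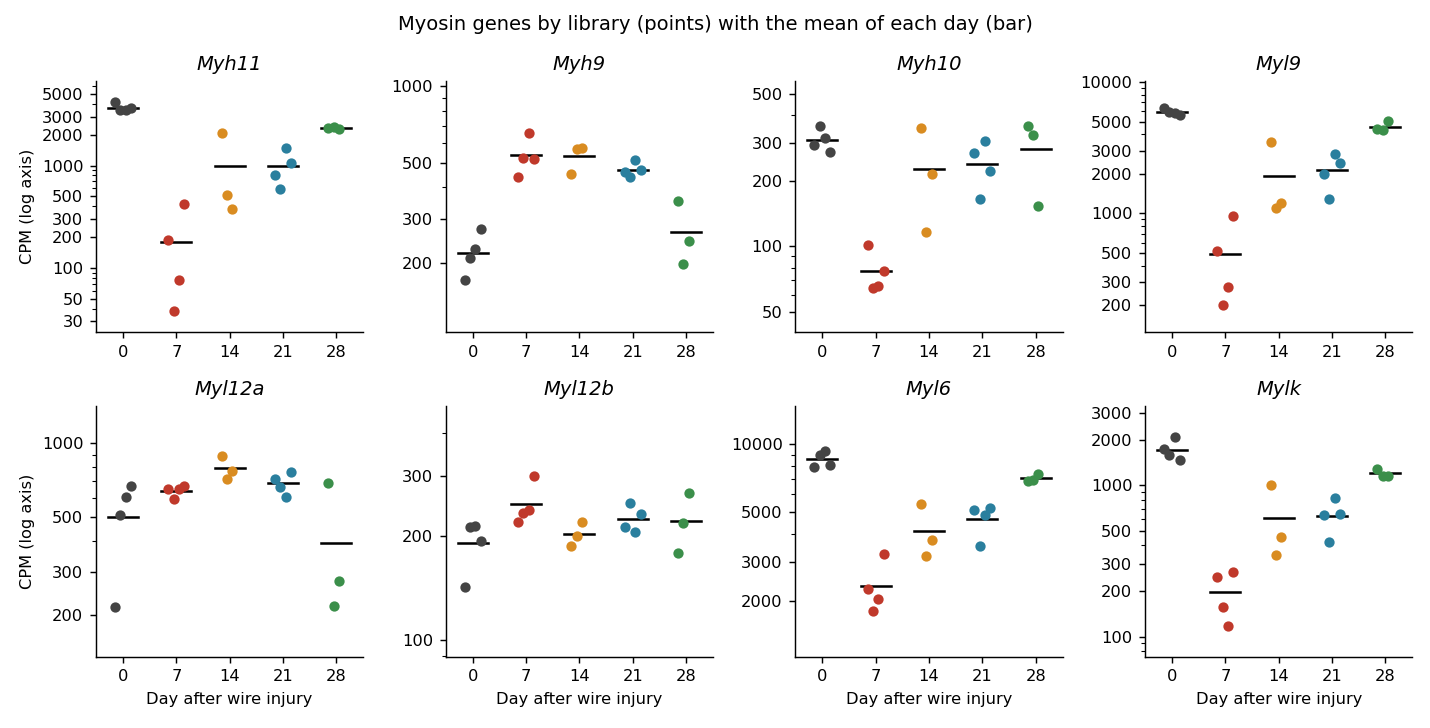
CPM of each gene (log axis, scaled to the gene) against the day after wire injury, where each point is a library and each bar the mean of a day. Myh11, Myl9, Myl6 and Mylk were lowest on day 7, where Myh11 ranged from 37.7 to 417 CPM against 3449 to 4181 on day 0, and Myh9 was highest on days 7 to 21.

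Myh11, the heavy chain of contractile smooth muscle, was at 4181, 3449, 3464 and 3632 CPM in the day 0 libraries (replicates 1 to 4) and at 187, 37.7, 75.8 and 417 on day 7. Libraries of day 14 held 2089, 521 and 377 CPM, those of day 21 816, 595, 1500 and 1059, and those of day 28 2342, 2398 and 2296. No library of any later day reached the lowest library of day 0. The order of the day means was 7, 21, 14, 28 and 0, and only the neighbours 21 and 14 overlapped in range. Against day 0, Myh11 fell on day 7 (log2 fold change -4.35, SE 0.55, adjusted p = 3.57e-06, edgeR), a 20.4-fold drop. Without replicate 4 of day 7 the log2 fold change was -5.20. On day 14 it was lower (log2 fold change -1.89, SE 0.55, adjusted p = 0.0381). That call was lost under DESeq2 (adjusted p = 0.0606), with limma on the deposited normalised values (0.0619), without replicate 2 or 3 of day 14 (0.230 and 0.199) and without any 1 of the day 0 libraries (0.0619 to 0.0729), while without replicate 1 of day 14 the log2 fold change was -3.03 (adjusted p = 0.00142). On day 21 it was lower too (log2 fold change -1.89, SE 0.49, adjusted p = 0.0163), but missed the threshold without replicate 1 (0.0566) or replicate 2 (0.0577) of day 21 and with limma on the deposited normalised values (0.0651).

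Myh9, the heavy chain of non-muscle myosin IIA, stood at 171, 210, 228 and 273 CPM on day 0. It was at 440, 521, 656 and 517 CPM on day 7, at 451, 568 and 571 on day 14 and at 460, 438, 511 and 465 on day 21. Every library of these 3 days lay above every day 0 library. On day 28 it was at 352, 198 and 246 CPM, which overlapped day 0 and none of days 7, 14 and 21. Myh9 rose 2.41-fold on day 7 (log2 fold change 1.27, SE 0.22, adjusted p = 0.000175, edgeR), 2.40-fold on day 14 (1.26, SE 0.23, adjusted p = 0.00141) and 2.12-fold on day 21 (1.09, SE 0.22, adjusted p = 0.00269).

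Myh10, the heavy chain of non-muscle myosin IIB, took a different course, since it was lower on day 7 like Myh11 and had no call on later days. Its levels were 292, 357, 316 and 272 CPM on day 0 and 101, 64.7, 65.8 and 77.5 on day 7, with no overlap. They were 350, 116 and 215 on day 14, 268, 165, 306 and 221 on day 21 and 359, 324 and 153 on day 28. Each of these 3 days overlapped day 0, and all of their libraries lay above those of day 7. Myh10 fell 3.99-fold on day 7 (log2 fold change -1.995, SE 0.32, adjusted p = 6.09e-05, edgeR). The 95% interval of the log2 change ran from -1.11 to 0.23 on day 14 and from -0.98 to 0.26 on day 21, which still holds decreases.

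Myl9, the regulatory light chain paired with Myh11, followed it closely. It was at 6366, 5953, 5819 and 5619 CPM on day 0 and at 522, 199, 275 and 956 on day 7. On day 14 it was at 3522, 1101 and 1195 CPM, on day 21 at 1981, 1286, 2850 and 2413, and on day 28 at 4378, 4293 and 5048. As with Myh11, no later library reached day 0, replicate 4 was the highest on day 7 and replicate 1 on day 14. Myl9 fell 12.1-fold on day 7 (log2 fold change -3.603, SE 0.41, adjusted p = 8.4e-07, edgeR), 3.06-fold on day 14 (-1.61, SE 0.42, adjusted p = 0.0174) and 2.79-fold on day 21 (-1.48, SE 0.37, adjusted p = 0.0133). With limma on the deposited normalised values the day 21 call was lost (adjusted p = 0.0546). The day 14 call was lost without replicate 2 (adjusted p = 0.148) or replicate 3 (0.111) of that day, and without replicate 1 the log2 fold change was -2.36 (adjusted p = 0.00105).

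The other regulatory light chains, Myl12a and Myl12b, which pair with non-muscle heavy chains in most cells, showed no such drop. Myl12a was at 216, 509, 605 and 671 CPM on day 0, 652, 595, 650 and 668 on day 7, 891, 718 and 770 on day 14, 714, 666, 607 and 768 on day 21 and 689, 217 and 275 on day 28. The low values were those of replicate 1 of day 0 and of replicates 2 and 3 of day 28, and only day 14 lay wholly above day 0. Its log2 fold change was 0.36 on day 7 (adjusted p = 0.481, edgeR, 95% interval -0.27 to 0.98) and 0.66 on day 14 (adjusted p = 0.296, -0.0034 to 1.33). Myl12b ranged from 143 to 215 CPM on day 0, 221 to 300 on day 7, 187 to 221 on day 14, 206 to 250 on day 21 and 180 to 268 on day 28. Its day 7 libraries all lay above day 0, yet the log2 fold change of 0.38 missed the threshold (adjusted p = 0.258, 95% interval -0.07 to 0.82).

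Myl6 encodes the essential light chain that smooth muscle and non-muscle myosin II share. It was at 7937, 8965, 9293 and 8081 CPM on day 0, at 2272, 1810, 2045 and 3232 on day 7, at 5426, 3178 and 3733 on day 14, at 5088, 3526, 4833 and 5191 on day 21 and at 6839, 6966 and 7373 on day 28. All later libraries were below day 0, and day 7 overlapped day 14 through a single pair of libraries. Myl6 fell 3.66-fold on day 7 (log2 fold change -1.87, SE 0.21, adjusted p = 7.74e-07, edgeR), 2.08-fold on day 14 (-1.06, SE 0.22, adjusted p = 0.00447) and 1.84-fold on day 21 (-0.88, SE 0.20, adjusted p = 0.00727). Without replicate 2 of day 14 the day 14 call was lost (adjusted p = 0.06), and with limma on the deposited normalised values the day 21 call was (0.0546).

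Mylk, the light chain kinase, was at 1723, 1579, 2091 and 1457 CPM on day 0 and at 248, 156, 118 and 266 on day 7. It was at 1001, 348 and 457 CPM on day 14, at 634, 420, 822 and 640 on day 21 and at 1287, 1154 and 1155 on day 28. Every later library was below the lowest of day 0. Mylk fell 8.67-fold on day 7 (log2 fold change -3.12, SE 0.31, adjusted p = 1.68e-07, edgeR), the smallest adjusted p of the 8 genes in that comparison. On day 14 the drop was 2.84-fold (-1.51, SE 0.32, adjusted p = 0.00466), which was lost without replicate 2 of that day (adjusted p = 0.0565), and on day 21 it was 2.72-fold (-1.44, SE 0.29, adjusted p = 0.00255). In the second deposited table, of normalised values, Mylk carried a further factor that differed 2.57-fold between libraries (0.532 to 1.37), against at most 1.09-fold for the other 7 genes, and from that table its day 14 change was -2.19.

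Against day 0, 5 of the 8 genes were lower on day 7, where 8.53% of the 10312 tested genes were called lower, and 1 was higher, where 11.3% were called higher. On day 14 the lower genes were 4 of 8 against a background of 1.42%, and on day 21 4 of 8 against 2.93%, in both cases Myh11, Myl9, Myl6 and Mylk. Myh9 was the higher gene on both days, against 4.8% of all genes on day 14 and 5.92% on day 21. The median log2 fold change of the 8 genes was -1.93, -0.75 and -0.62 on days 7, 14 and 21, beside 0.07, 0.05 and 0.07 over all tested genes. These comparisons share the day 0 libraries.

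**Figure D2:**
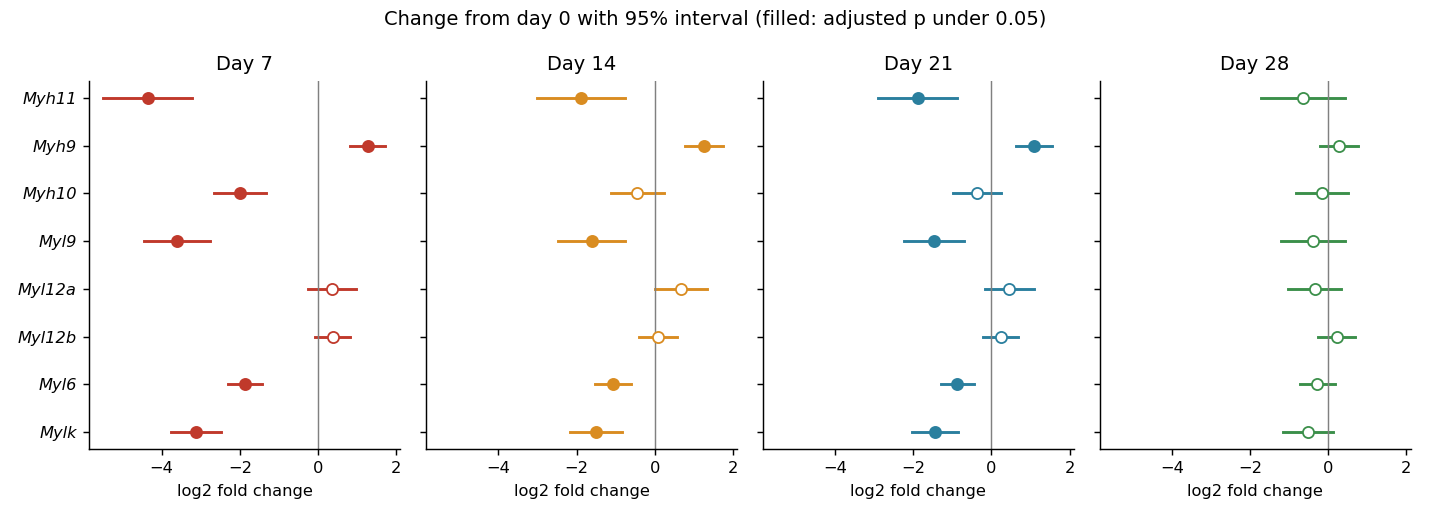
Log2 fold change from day 0 (point) with its 95% interval (line) for each gene on each day, from the edgeR fit over 18 libraries, with filled points where the adjusted p was under 0.05. On day 7 there were 6 filled points, on days 14 and 21 5 each and on day 28 0, with Myh9 the only gene to the right of 0 among the filled ones.

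On day 28 every library lay between the ranges of day 7 and day 0 for Myh11, Myl9, Myl6 and Mylk. How many of all tested genes were separated in this way was not counted. None of the 8 genes passed the test in edgeR, against 1.34% of all genes called in either direction. At an unadjusted p under 0.05 the count was also 0, and DESeq2 called 0 as well. With only the libraries of days 0 and 28 in the fit the adjusted p of Myh11 was 0.0702 (log2 fold change -0.62, SE 0.14) and the unadjusted p was 0.000436 for Myh11, 0.0123 for Mylk and 0.0164 for Myl9, and without a filter that of Myh11 was 0.0102 (edgeR). Myh11 stood at 63.7% of its day 0 mean, Mylk at 70.0%, Myl9 at 77.0%, Myl6 at 82.4%, Myh10 at 90.2% and Myh9 at 120%. The log2 fold change of Myh11 was -0.65 (95% interval -1.73 to 0.43, adjusted p = 0.599), that of Mylk -0.51 (-1.15 to 0.13, adjusted p = 0.458), that of Myl9 -0.38 (-1.20 to 0.44, adjusted p = 0.713) and that of Myl6 -0.28 (-0.73 to 0.17, adjusted p = 0.588). These intervals still hold decreases of the size measured.

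The later days were also compared with day 7, and these comparisons share the day 7 libraries. On day 14, 4 of 8 genes were higher than on day 7 (1.33% of all genes): Myh11 (5.52-fold), Myl9 (3.97-fold), Mylk (3.05-fold) and Myh10 (2.93-fold). All 4 calls were lost without replicate 1 of day 14, where the log2 differences were 1.33, 1.25, 1.05 and 1.13 with adjusted p of 0.474, 0.223, 0.174 and 0.231. The Myh11 call was also lost without replicate 2 (0.0505) or 3 (0.0593) of day 7, and the Myh10 call without replicate 2 of day 7 (0.0617). Myl6 missed the threshold on day 14 (log2 difference 0.81, adjusted p = 0.0562, edgeR) but was called by DESeq2 (adjusted p = 0.00579). On day 21 the count was 5 of 8 (4.03% of all genes), with Myh11 5.50-fold, Myl9 4.36-fold, Mylk 3.19-fold, Myh10 3.10-fold and Myl6 1.99-fold higher. On day 28 the same 5 genes were higher (6.4% of all genes), Myh11 by 13.0-fold (log2 difference 3.70, SE 0.55, adjusted p = 0.000112), Myl9 by 9.35-fold, Mylk by 6.07-fold, Myh10 by 3.596-fold and Myl6 by 3.02-fold. Myh9 was 2.01-fold lower on day 28 than on day 7 (adjusted p = 0.0063), where 8.05% of all genes were lower. The log2 differences of Myh11 from day 7 were larger without replicate 4 of day 7, at 3.30, 3.31 and 4.55 on days 14, 21 and 28.

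The balance of muscle and non-muscle forms was followed as the log2 ratio of their counts within each library, which no scaling of libraries can move. MACE counts 1 end per transcript, so a change of the ratio is a change of transcript balance, while its level depends on how well each 3′ end is captured. The Myh11 to Myh9 log2 ratio was 4.60, 4.03, 3.92 and 3.73 in the day 0 libraries and -1.23, -3.76, -3.10 and -0.31 on day 7, so Myh9 counts exceeded Myh11 counts in all 4 libraries of day 7. It was 2.21, -0.13 and -0.60 on day 14, 0.83, 0.44, 1.55 and 1.18 on day 21 and 2.73, 3.59 and 3.22 on day 28. The mean log2 ratio differed from day 0 by -6.17 on day 7 and by -3.07 on day 21. On days 7 and 21 in turn, the difference was -2.89 and -1.58 for Myh11 to Myh10, -4.34 and -2.11 for Myl9 to Myl12a and -4.25 and -1.79 for Myl9 to Myl12b. In all 8 of these comparisons the days did not overlap and the exact two-sided permutation test gave p = 0.0286 (adjusted p = 0.0286 over 8 tests), the smallest that 4 against 4 libraries allow. For Myh11 to Myh9 on days 7 and 21 and Myl9 to Myl12b on day 7 this outcome was fixed in advance. There both genes already lay apart from day 0, in opposite directions, so these tests add no support of their own. With 3 libraries on days 14 and 28 the smallest possible p is 0.0571, so these days were not tested. On day 28 the Myh11 to Myh9 ratio was below every day 0 library, and so was Myl9 to Myl12b (4.23 to 4.60 against 4.76 to 5.47). Myl9 to Myl12a was at 2.67, 4.30 and 4.20, within the range of day 0 (3.07 to 4.88) or below it. Myh11 to Myh10 was at 2.70, 2.88 and 3.90 on day 28, on either side of the day 0 range (3.27 to 3.84).

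**Figure D3:**
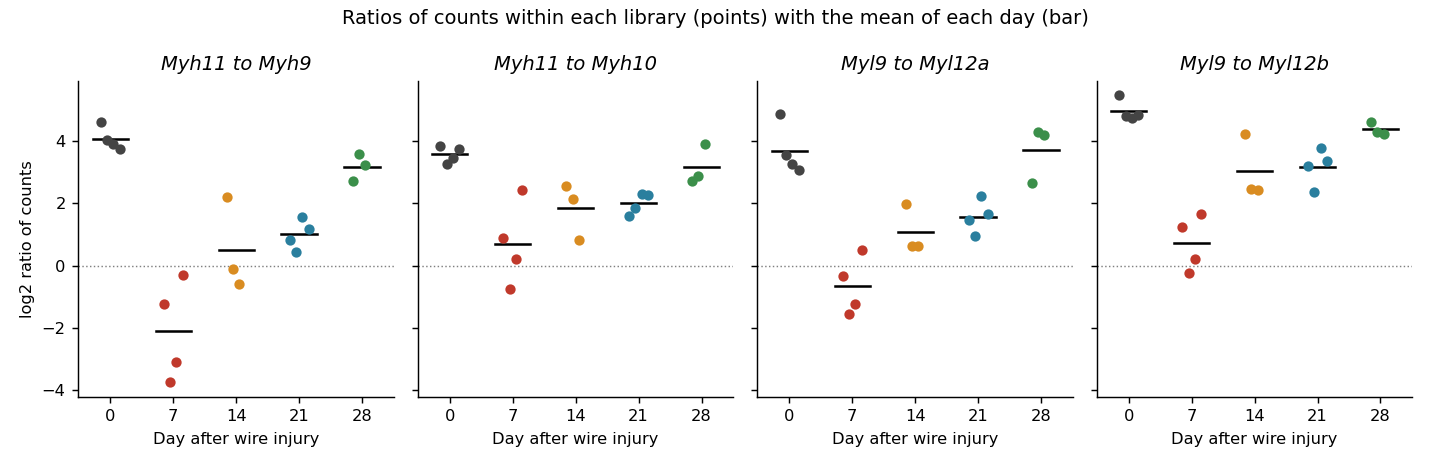
Log2 ratio of counts within a library (vertical axis) by day after wire injury for 4 pairs of a smooth muscle gene and a non-muscle gene, where points are libraries, bars are means of a day and the dotted line marks equal counts. The day 7 libraries lie below all day 0 libraries for every pair, and for Myh11 to Myh9 all 4 lie below 0.

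Over all 18 libraries Pearson's r of log2 CPM with Myh11 was 1.00 for Myl9, 0.97 for Myl6, 0.97 for Mylk, 0.87 for Myh10, -0.76 for Myh9, -0.36 for Myl12a and -0.46 for Myl12b. Libraries of 1 day share their condition, so the day means were subtracted: r with Myh11 was then 0.98 for Myl9, 0.84 for Myl6, 0.81 for Mylk and 0.50 for Myh10, and -0.27 for Myh9. Myl12a, at 0.05 with Myh11, had 0.72 with Myh9. These values describe libraries that also share total depth and cell mixture, and no test was made. Myh11 varied widely between the libraries of day 7 (37.7 to 417 CPM) and little between those of day 28 (2296 to 2398 CPM).

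**Figure D4:**
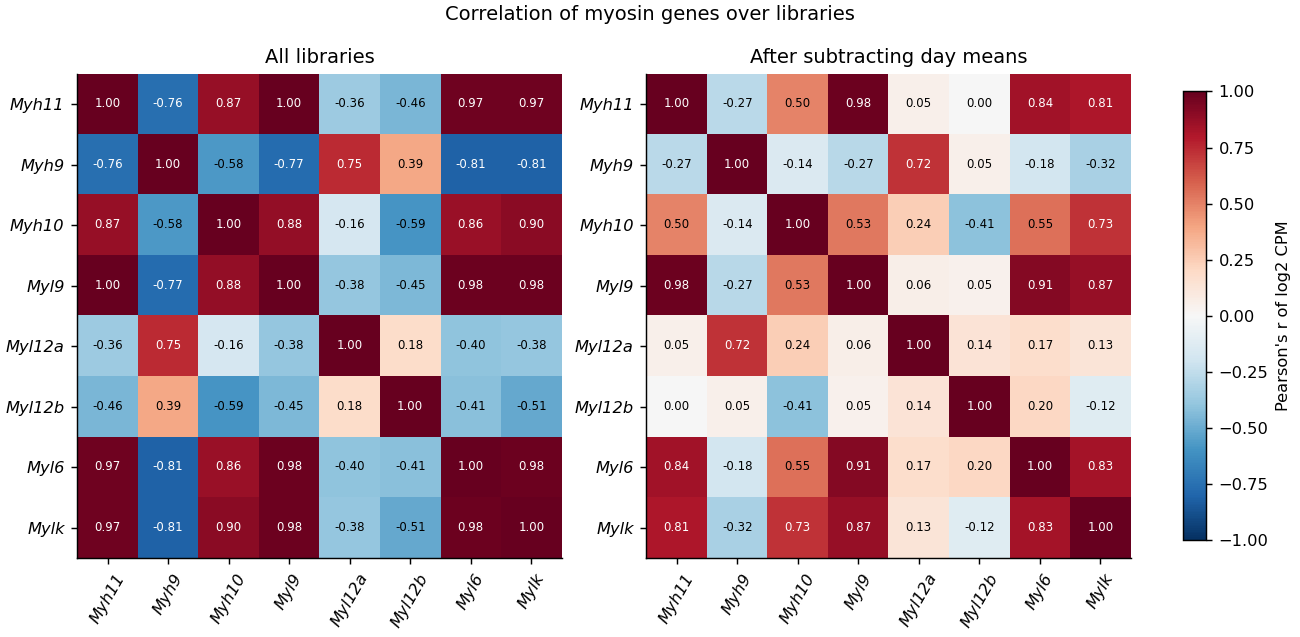
Pearson's r of log2 CPM between the 8 genes over 18 libraries (left) and after subtracting the mean of each day (right), with colour and printed value giving r. Myh11, Myl9, Myl6 and Mylk form a block of high values in both panels (0.81 or more with Myh11), and Myh9 pairs with Myl12a (0.75 and 0.72).

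Tested genes outside the 8 described here were also ranked by the likeness of their log2 CPM over the 18 libraries. Most like Myh11 were Tagln (r = 0.99), Cnn1 (0.99), Tpm2 (0.99), Itga8 (0.98) and Tns1 (0.98), of which the first 3 belong to the contractile marker list. The genes most like Myh9 were Ccn4 (0.95), Ms4a7 (0.94), Thbs1 (0.93), Sema7a (0.92) and Ctss (0.92). Ms4a7 and Ctss are abundant in macrophages, and Ccn4 and Thbs1 encode matricellular proteins. After subtracting day means r with Myh9 was 0.83 for Thbs1, 0.79 for Ccn4, 0.67 for Sema7a, 0.54 for Ms4a7 and 0.46 for Ctss, and r with Myh11 was 0.96 for Tagln, 0.96 for Cnn1, 0.92 for Tpm2, 0.95 for Itga8 and 0.88 for Tns1.

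**Figure D5:**
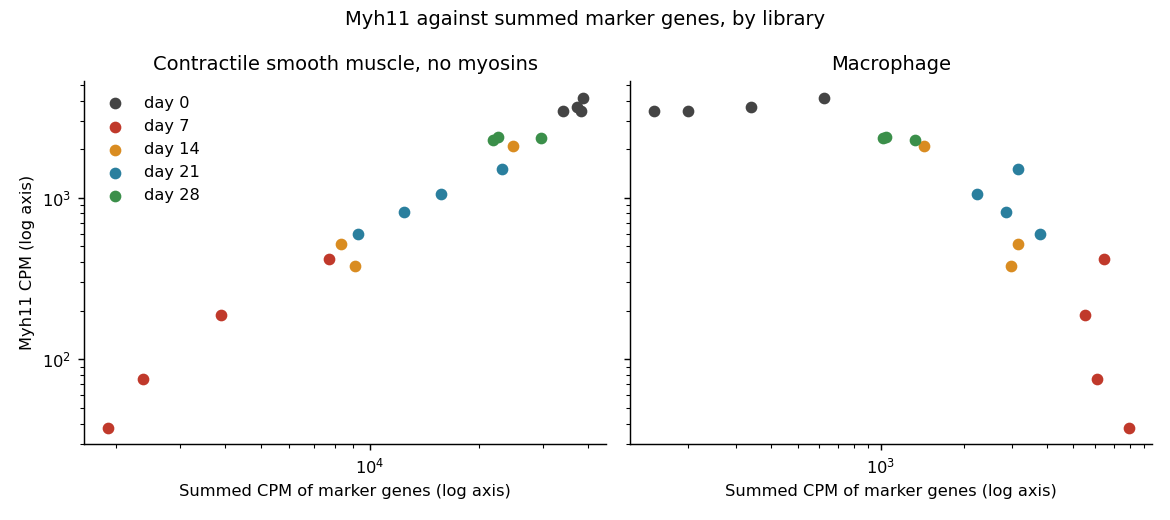
Myh11 CPM against the summed CPM of 8 contractile smooth muscle markers without myosins (left) and of 16 macrophage markers (right), both axes logarithmic, where each point is a library coloured by day. Libraries with fewer contractile marker counts mostly had less Myh11, down to 37.7 CPM at 1894 CPM of markers. The order was not strict. Replicate 3 of day 21 had 1500 CPM of Myh11 at 23113 CPM of markers. Replicate 3 of day 28 had 2296 at 21925. The day 7 libraries had the most macrophage marker counts (5495 to 7934 CPM), with Myh11 at 37.7 to 417 CPM.

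Markers of other cell types moved with these genes, and their part in the results was not tested. All 8 contractile markers fell on day 7, with a median log2 change of -3.26, and 6 of 8 were lower on day 21. On day 14 Acta2, Des and Tpm2 were lower and on day 28 Des alone, these names being given after their values were seen. All 16 macrophage markers were higher on days 7, 14 and 21, with a median log2 change of 4.27 on day 7, and on day 28 C1qb, Fcer1g, Aif1 and Laptm5 were. Of all tested genes 0.97% were higher and 0.369% lower on day 28. Neutrophil markers (5 genes) summed to 26.8 to 99.9 CPM on day 0 and 228 to 794 on day 7. Platelet markers (5 genes) summed to 55.1 to 109 CPM on day 0 and 213 to 386 on day 7. Only 2 platelet markers were tested, and they moved apart. Mean Pf4 went from 9.97 to 222 CPM (adjusted p = 2.33e-06, edgeR), and mean Gp1bb from 72.8 to 43.8 CPM (adjusted p = 0.121). The 9 endothelial markers summed to 670 to 1222 CPM on day 0 and 737 to 2344 on day 7. Of these, 4 were higher on day 7 and 1, Vwf, was lower (edgeR, with 11.3% and 8.53% of all genes). The 8 fibroblast markers summed to 3014 to 3946 CPM on day 0 and 1304 to 2409 on day 7. Of these, 4 were lower and 1, Lum, was higher, with a mean of 119 CPM on day 0 and 562 on day 7. Lymphocyte markers (7 genes) never exceeded 42.0 CPM in sum, and glial markers (5 genes) reached 254 CPM in 1 library of day 21. Skeletal muscle markers (8 genes) were at most 5.96 CPM on day 0 but reached 464 in replicate 2 of day 14 and 369 in replicate 1 of day 21.

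The genes that set myosin activity changed with the contractile motor. Of 24 genes on the list of regulators 23 were tested, and on day 7 12 were lower and 0 higher (edgeR, with 8.53% of all genes lower), with a median log2 change of -1.22. The lower genes numbered 7 on day 14 (1.42% of all genes), 6 on day 21 (2.93%) and 1, Ppp1cb, on day 28 (0.369%). Cald1, which encodes caldesmon, an actin-bound brake on myosin, was at 691 to 1081 CPM on day 0 and 158 to 185 on day 7 (log2 fold change -2.35, SE 0.23, adjusted p = 1.15e-07). Rock1, a kinase that restrains myosin phosphatase, went from 353 to 500 CPM down to 21.0 to 57.8 (-3.17, SE 0.35, adjusted p = 7.74e-07). The targeting subunits of myosin phosphatase fell as well. Ppp1r12a went from 511 to 593 CPM down to 89.8 to 144 (-2.23, SE 0.26, adjusted p = 1.26e-06) and Ppp1r12b from 371 to 477 CPM down to 9.97 to 69.4 (-3.50, SE 0.43, adjusted p = 2.11e-06).

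Of serum response factor and its cofactors, 3 of 4 genes were tested. Mrtfa, a cofactor that responds to actin, was higher on day 7 (48.1 to 81.7 CPM, against 28.9 to 39.4 on day 0, log2 fold change 0.92, SE 0.32, adjusted p = 0.0461, edgeR), and no other member of that list passed the test against day 0. Myocd, the smooth muscle cofactor, did not pass the filter on low counts, and it had 7 to 11 counts per library on day 0, 0 to 1 on day 7, 0 to 6 on day 14, 0 to 11 on day 21 and 0 to 13 on day 28.

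Of 38 other myosin genes 18 were tested, Myh6, Myl3, Myl7 and Myo7b had no count in any library, and on day 7 6 were higher and 2 lower (edgeR, with 11.3% and 8.53% of all genes). The lower ones were kinases related to Mylk: Mylk4 went from 185 to 407 CPM down to 1.80 to 19.6 (log2 fold change -4.64, SE 0.52, adjusted p = 8.4e-07), and Mylk2 from 15.7 to 53.6 CPM down to 0 to 5.98 (-4.26, SE 0.90, adjusted p = 0.00128). The higher ones were unconventional myosins, which carry cargo or tension membranes. Myo1f, a myosin of leukocytes, had 0 counts in all day 0 libraries and 62.9 to 90.4 CPM on day 7, at least 74.1-fold higher taking 3 counts over the day 0 libraries as the floor. Myo7a likewise went from 0 counts to 3.23 to 25.9 CPM, at least 12.4-fold higher, and Myo10 from 4.78 to 19.4 CPM up to 46.7 to 118 (log2 fold change 2.86, SE 0.51, adjusted p = 0.000231). On day 14 4 were higher (Mylpf, Myo1f, Myo7a and Myo10, with 4.8% of all genes) and 1 lower (Mylk4, 1.42%), and on day 21 5 were higher (among them Myo1f, Myo6, Myo7a and Myo10, 5.92%) and 1 lower (Mylk4, 2.93%). Mylpf, a light chain of skeletal muscle that is also on the skeletal muscle marker list, rested on 1 library of day 14, at 42.8 ± 73.0 CPM (SD, n = 3) with a range of 0 to 127. On day 28 none of the 18 passed the test against day 0.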

How the data were processed

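Laser-captured mouse carotid tissue was profiled by MACE in 18 libraries, grouped by day from the labels. The authors collapsed reads with the same molecular identifier, quantified them with Salmon 1.9.0 against the mm39 transcriptome and deposited estimated counts per gene as whole numbers. A second table deposited by the authors holds normalised values made with DESeq2 1.36.0, a signal with a factor per library and, for some genes, a further factor. The annotation release and use of strand are not given in the sources used here.

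The estimated counts were tested with the quasi-likelihood test of edgeR 4.0.16 (R 4.3.3) in 1 fit over all libraries with day as the only term, after filterByExpr by day (10312 of 35655 genes) and TMM scaling. P-values were adjusted by Benjamini-Hochberg over all tested genes with a threshold of 0.05. CPM used TMM library sizes, log2 CPM a prior count of 2 and ratios a pseudocount of 0.5. Ratios were tested by exact permutation. Intervals cover 95%. The tests were tested on simulated data. No 2 libraries agreed within sampling noise. All 8 members are named. The 5 genes most correlated with Myh11 and with Myh9, members left out, are named too. From 3 pathway lists up to 4 genes per direction with the smallest p on day 7 are named. Some genes of these lists are not reported here. Markers of 9 cell types were summed. Members and lists were chosen with earlier results of these data known. Alternatives were DESeq2 1.42.0, its size factors, no scaling factors, no filter, only the compared days, blocks, limma 3.58.1 on log2 of the deposited signal plus 1, and leaving out each library. All table columns mapped to libraries.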

Additional observations from a re-analysis of the deposited data

Results flagged for a closer look

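The change from day 0 differed between day 7 and a later day for several genes, by the edgeR test of the difference itself. Myh11 differed by 2.46 on day 14, 2.46 on day 21 and 3.70 on day 28 (log2, later day minus day 7, adjusted p = 0.0163, 0.0033 and 0.000112). Myl9 differed by 1.99, 2.12 and 3.23 (adjusted p = 0.01, 0.001 and 2.34e-05), Mylk by 1.61, 1.67 and 2.60 (0.00877, 0.000913 and 1.61e-05) and Myh10 by 1.55, 1.63 and 1.85 (0.0163, 0.00175 and 0.00055). Myl6 differed by 0.99 on day 21 and 1.59 on day 28 (0.00293 and 4.3e-05). Myh9 differed the other way on day 28, by -1.004 (0.0063). No library lay far from the others of its day by Dixon's criterion in any of the 24 groups of 4 libraries. Days 14 and 28, with 3 libraries each, were not checked this way. Replicate 1 of day 14, which stood apart in contractile markers, was therefore not covered.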

How the results depend on the processing

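Of 1456 values recomputed under alternatives, 1400 kept their direction and side of the threshold, 32 lost a call, 9 gained one and 15 changed sign. Most of these values came from leaving out 1 library, often of a day outside the comparison, and many had no call to lose. The total therefore says little about any single call. The day 7 and day 28 counts against day 0 stayed at 6 and 0. The count on day 14 against day 0 ranged from 1 to 5 of 8 when 1 library was left out (1 without day 14 replicate 2, 3 without replicate 3). On day 21 it was 2 with limma on the deposited values. Day 14 against day 7 gave 0 with only the compared days in the fit, 0 with limma on the deposited values and 0 to 5 when 1 library was left out (0 without day 14 replicate 1, 2 without day 7 replicate 2). Changes of sign were all in uncalled values: Myh9 on day 14 against day 7 (0.0037 without a filter, 0.022 with only the compared days, 0.028 with a replicate block, 0.0024 with a block of label numbers), and with 1 library left out it ranged from -0.064 to 0.13, Myl12b on day 14 from -0.026 to 0.15 and Myh10 on day 28 from -0.36 to 0.14. The correlation of Myl12a with Myh11 turned from -0.36 to 0.0498 after subtracting day means. The causes were not tested. Replicate numbers did not pair the libraries (median correlation of deviations -0.0057 over 33 pairs, -0.13 to 0.20), and the replicate block only added Myl6 on day 14 against day 7 (0.89, adjusted p = 0.0387). The 3 label numbers that occur on both day 0 and day 21 gave correlations of -0.0067 to 0.055, and 3 pairs are too few to exclude that they name the same animals. Limma on the deposited values, which changes both the table and the test, moved the median log2 change of all genes on day 7 from 0.07 to 0.17, and on day 28 against day 7 from -0.07 to -0.20. Counts of members were 21 or more per library, and counting error limits the precision of the lower ones.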
